A study of Mus musculus with 6 samples.

Results

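The cells described here were neural crest mesenchyme of the third and more posterior pharyngeal arches, picked out by their Hox genes. A cell barcode past the quality filter (at least 2500 detected genes and at most 10% mitochondrial counts) belonged to the arch crest if it held at least 3 UMIs of Dlx1 and Dlx2 together, at least 1 UMI of Twist1 and fewer than 3 of Epcam. A UMI, or unique molecular identifier, marks 1 captured RNA molecule. Of these arch crest cells, those with at least 2 UMIs of Hoxa3, Hoxb3 and Hoxd3 together were taken as Hox3-positive. There were 1686 Hox3-positive cells among 4942 arch crest cells, 35962 barcodes past the filter and 53362 barcodes in all. The members were thus chosen on measured values, and the levels of Dlx1, Dlx2, Twist1, Epcam, Hoxa3, Hoxb3 and Hoxd3 in them are a description only.

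Pharyngeal arches are paired swellings on the embryo's neck that are filled by neural crest cells migrating out of the hindbrain. Crest cells of the first arch carry no Hox gene, those of the second arch carry Hox genes of paralogue group 2, and those of the third and following arches add group 3 and then group 4. Dlx genes are shared by the crest of all arches and pattern each arch from its upper to its lower end. The posterior arches form the hyoid and laryngeal skeleton, the connective tissue of the thymus and parathyroid, and the walls of the great arteries, and their crest also reaches the outflow tract of the heart.

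The study profiled single-cell RNA from the microdissected cardiogenic region of wild-type C57BL/6 mouse embryos at E10.5 (embryonic day). Mothers had been pretreated with vehicle and had normal blood glucose (3 samples), or with STZ (streptozotocin, a toxin of insulin-producing cells) and were hyperglycemic (3 samples). All fathers had normal glucose, so the model is an exposure through the mother, with no altered gene in the embryo. The counts are one table in which a barcode suffix from 1 to 6 tells 6 libraries apart, and no file used here pairs a suffix with a sample. The STZ and vehicle groups were therefore not compared, the table counts as 1 sample, and no test between groups was possible.

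Every level below is in CPM, the UMIs of a gene scaled to the same total of UMIs for every set of cells, and CPM is used to compare a gene between sets, not one gene with another. Brackets give 95% intervals for the error of counting alone, and no interval covers how embryos differ. In place of a test, a gene was called higher or lower if its CPM differed at least 2-fold, reached 10 CPM in the higher set, and differed in the same direction in every library with at least 50 cells in both sets. Genes that reached the minimum in either set are counted as tested, so some were tested only through the set where they are high. "Higher" and "lower" are used of called genes. For other genes the values alone are given.

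Some libraries stood apart within these cells. The UMI totals of the 6 libraries ran from 200462921 to 248426458. Hemoglobin RNA ran from Hbb-y at 3000 CPM in library 1 to 30.2 in library 2, while the median cell held 0.00879% and 0.00602% hemoglobin UMIs. Only 7 Hox3-positive cells held 1% or more, 2 of them in library 1 and 0 in library 2. Histone gene Hist1h1b stood at 839, 863 and 1169 CPM in libraries 1, 2 and 3 and at 228, 152 and 185 in libraries 4, 5 and 6. The Hox3-lacking crest cells showed the same split for Hist1h1b, at 959 to 1314 CPM in libraries 1 to 3 and 207 to 235 in libraries 4 to 6. In all, 51 of 3679 genes with enough counts (1.39%) differed at least 2-fold between the highest and lowest library in Hox3-positive cells. What these libraries share was not tested, and each comparison below was therefore also read within libraries (all 6, or 5 in the Hox4 comparison). Of the Hox3-positive cells, 203 carried a barcode sequence that also occurred in another library, and 190 of these had at least 10 times the UMIs of every other copy. No sequence was a Hox3-positive cell in 2 libraries.

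The Hox3-positive share of the arch crest differed between libraries. It was 22.7% (20.2 to 25.4) in library 1, 27.7% (24.4 to 31.1) in library 3 and 30.8% (27.8 to 33.9) in library 6. It was 37.2% (33.6 to 41.0) in library 4, 44.2% (40.6 to 47.7) in library 5 and 45.8% (42.4 to 49.3) in library 2, all by the Clopper-Pearson method. The intervals of libraries 1 and 3, 3 and 6, and 2 and 5 overlapped, and so did those of 6 and 4 and of 4 and 5, while libraries 1, 3 and 6 lay clear of libraries 2 and 5. Over all libraries 34.1% (32.8 to 35.5) of arch crest cells were Hox3-positive. The share depended on depth: the median cell held 47507 UMIs among Hox3-positive cells and 41649.5 among Hox3-lacking ones. When every cell was thinned to 10000 UMIs before the rule was applied, 136 of 998 cells (13.6%) were Hox3-positive, from 6.83% in library 1 to 21.2% in library 5. Libraries 2 and 5 stayed the highest, at 20.1% (13.9 to 27.6) and 21.2% (15.2 to 28.2), and library 1 the lowest (3.78 to 11.2). Library 1 still lay clear of libraries 2 and 5. Libraries 3 (7.20 to 19.2) and 6 (7.43 to 16.5) no longer did. How much of the arches each dissection took in is not given in the sources used here, and its part in these shares was not tested.

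**Figure D1:**
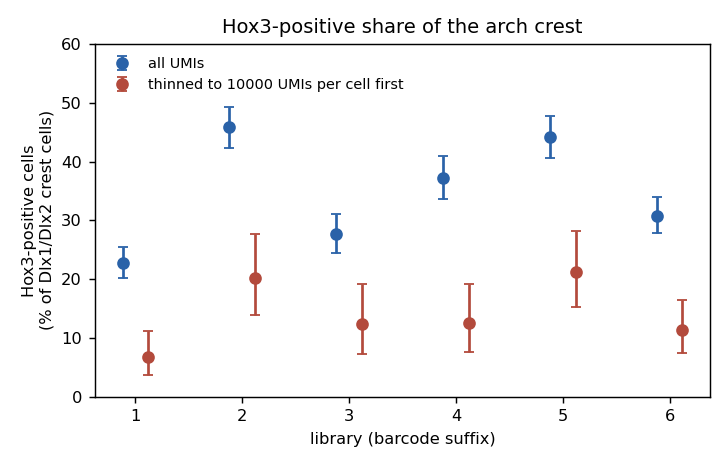
Share of Dlx1/Dlx2 arch crest cells that were Hox3-positive (vertical axis, percent) in each of the 6 libraries (horizontal axis), with all UMIs (blue) and after thinning each cell to 10000 UMIs (red). Points are single libraries and bars are 95% exact binomial intervals: library 1 is lowest at 22.7% and library 2 highest at 45.8%.

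At full depth most Hox3-positive cells held more than 1 of the 3 genes. All of Hoxa3, Hoxb3 and Hoxd3 had a UMI in 636 of 1686 cells (37.7%), Hoxa3 with Hoxb3 in 441 (26.2%), and Hoxb3 with Hoxd3 in 342 (20.3%). Hoxa3 with Hoxd3 but without Hoxb3 was rare at 39 cells (2.31%), and 146 cells (8.66%) held Hoxb3 alone. At 10000 UMIs per cell the picture turned: of 1680 cells, 445 (26.5%) held Hoxb3 alone, 203 (12.1%) Hoxa3 alone, 67 (3.99%) all 3 and 447 (26.6%) none. The level of Hoxa3 was nearly the same in all libraries, at 29.4, 32.2, 32.6, 29.8, 33.5 and 32.7 CPM in libraries 1 to 6. Hoxb3 ranged more widely, at 60.4, 64.5, 65.8, 83.8, 73.3 and 89.7 CPM, while Hoxd3 ran from 25.7 to 36.3 CPM. Free RNA in the droplets was looked for in cardiomyocyte and erythroid barcodes, with medians of 41621.5 and 64808.5 UMIs. Hox3 RNA made by these cells themselves cannot be told apart from free RNA here. Of the cardiomyocyte barcodes 3.84% had a Hoxa3 UMI, 8.68% a Hoxb3 UMI and 0.274% a Hoxd3 UMI, and of the erythroid ones 1.15%, 1.86% and 0.287%. The cardiomyocyte barcodes were chosen to hold no Dlx1, Dlx2 or Twist1 UMI, so barcodes with such crest RNA were left out of them. The shares in Hox3-positive cells were 70.3%, 92.8% and 61.0%, which the rule itself fixes in part. Hox3 UMIs are not particular to these cells: 8666 barcodes past the filter but outside the arch crest also held 2 or more.

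Markers of crest mesenchyme were present. All 10 genes of the crest mesenchyme list (Dlx2, Twist1, Prrx1, Prrx2, Tfap2a, Tfap2b, Msx1, Pdgfra, Snai2 and Alx1) reached 10 CPM in Hox3-positive cells, and 8 of them did in second arch cells. The rule itself used Dlx2 and Twist1. Some of the barcodes also carried markers of other cells. Of the Hox3-positive cells, 70 (4.15%) held at least 10 UMIs of 8 neuron markers, 122 (7.24%) of 6 markers of migratory crest and glia, and 28 (1.66%) of 7 cardiomyocyte markers. The matching shares in Hox3-lacking cells were 0.888%, 0.639% and 2.49%. Sox10, a factor of migratory crest and glia, was higher in Hox3-positive cells, at 14.2 against 2.05 CPM. The 6 migratory crest and glia markers summed to 16.6, 28.0 and 28.2 CPM in libraries 1 to 3 and to 73.6, 61.2 and 60.7 in libraries 4 to 6, against 21.3 CPM or less in every library of Hox3-lacking cells. Neuron markers summed to 27.0 to 112 CPM by library against 19.0 to 35.7, and cardiomyocyte markers to 17.7 to 129 CPM against 28.2 to 519. Markers of heart field mesoderm (7 genes; Isl1, Fgf10 and Foxf1 over 10 CPM) summed to 49.9 to 74.3 CPM against 25.3 to 35.3, and those of smooth muscle (6 genes; Acta2, Tagln and Rgs5 over 10 CPM) to 86.4 to 281 against 103 to 248. No gene of these 5 lists was at 0 in either set. Scrublet, a doublet caller, would leave out 184 Hox3-positive cells (10.9%) and 100 Hox3-lacking cells (3.55%). Leading genes no longer called without barcodes carrying markers of another cell type are named below. For most other genes the level without these barcodes is not given.

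The Hox3-positive cells were compared first with the 2816 arch crest cells that held no UMI of Hoxa3, Hoxb3 or Hoxd3. These Hox3-lacking cells were mostly of second arch type, since 2363 of them held at least 2 UMIs of Hoxa2 and Hoxb2, and only 216 held no UMI of either gene. Of 8430 genes tested, 159 (1.89%) were higher and 69 (0.819%) lower in Hox3-positive cells, and the median log2 ratio over all genes tested was -0.01. Against the second arch cells alone, 165 of 8431 genes (1.96%) were higher and 76 (0.901%) lower. Hoxa2 and Hoxb2 stayed among these tested genes although second arch cells were chosen on them, so the lower call of Hoxa2 there is fixed in part. The 2 comparisons share the Hox3-positive cells and most of the others, so the second is not separate evidence.

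**Figure D2:**
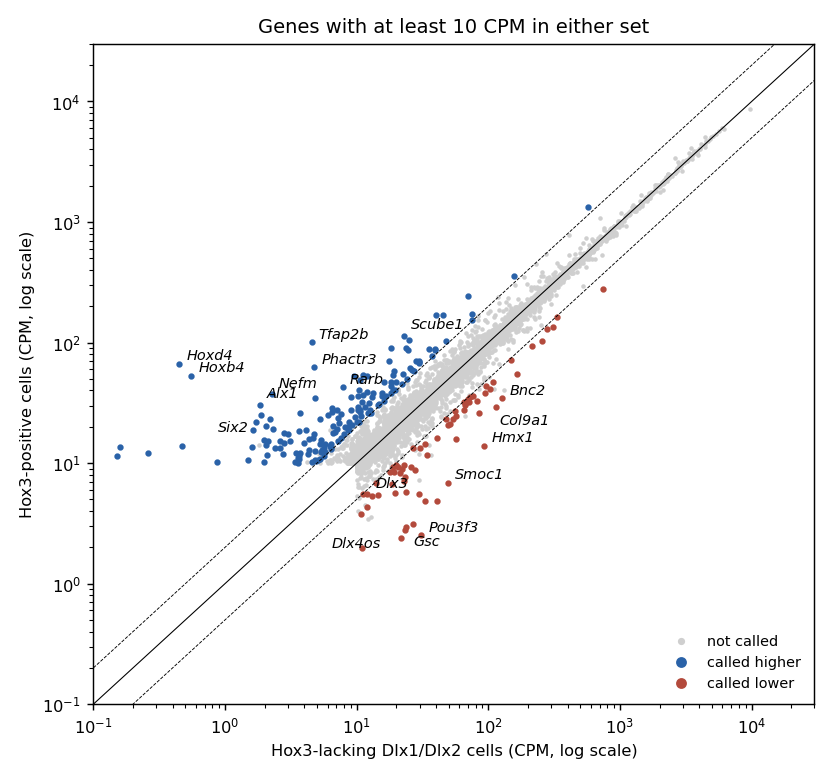
Level of each gene with at least 10 CPM in either set, in Hox3-lacking arch crest cells (horizontal axis, CPM, log scale) and in Hox3-positive cells (vertical axis, CPM, log scale). Each dot is a gene, the solid line marks equal levels and the dashed lines 2-fold differences; of the labelled genes, Hoxd4, Hoxb4 and Tfap2b lie farthest above the line, and Pou3f3, Dlx4os and Gsc farthest below it.

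Hox genes that the rule did not use also differed between the sets. Of these, Hoxd4 lies within the span of the rule gene Hoxd3, and Hoxa4 and Hoxa5 within that of Hoxa3. Their values may therefore not be separate from the rule. Hoxd4 was at 65.0, 68.2, 86.0, 69.4, 58.6 and 60.8 CPM in Hox3-positive cells of libraries 1 to 6, and at 0.848 CPM or less in Hox3-lacking cells of every library. The pooled ratio was 149-fold (114 to 198). Hoxb4 was at 44.6, 47.6, 55.2, 57.4, 53.7 and 59.4 CPM against 0.844 CPM or less, a pooled ratio of 96.1-fold (75.4 to 124). The libraries of the 2 sets did not overlap for either gene, nor for 6.81% of all genes tested on the higher side. Hoxc4 was higher by 77.0-fold (48.5 to 130.4), from 0.150 to 11.6 CPM. Hoxa4, Hoxa5 and Hoxb5 stayed under the 10 CPM minimum and so were not tested, at 8.57, 7.56 and 8.06 CPM in Hox3-positive cells and 0.183, 0.208 and 0.183 CPM in Hox3-lacking ones.

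Group 2 Hox genes did not follow the same course. Hoxa2, which selects second arch identity, was lower in Hox3-positive cells, at 31.3 to 32.7 CPM across the 6 libraries against 55.0 to 80.7 CPM in Hox3-lacking cells. The ratio was 2.16-fold (2.07 to 2.26). Hoxb2 stood at 88.6 CPM in Hox3-positive and 55.9 CPM in Hox3-lacking cells, a ratio of 1.58 that stayed below the call. Genes beyond group 5 were nearly absent, with Hoxb8 at 0.373 CPM and no UMI of Hoxc6, Hoxa9 or Hoxc8, which allows a level of up to 0.0349 CPM (3 counts) for each. In the gene models (GENCODE M21, mm10), Hoxd4 (chr2:74711929-74729160, plus strand) lies within the span of Hoxd3 (chr2:74711927-74748442), and Hoxa3 (chr6:52169062-52213336, minus strand) spans Hoxa4 and Hoxa5. How reads shared by such genes were assigned is not given in the sources used here, so Hoxd3 and Hoxd4, and Hoxa3 with Hoxa4 and Hoxa5, are uncertain as separate measurements. No call was made among the 8 tested Hox cofactor genes (Meis, Pbx and Pknox), a list too short for that count to differ from the shares of all genes called (1.89% higher and 0.819% lower). Meis1 was at 210.0 against 299 CPM and Meis2 at 754 against 835.

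**Figure D3:**
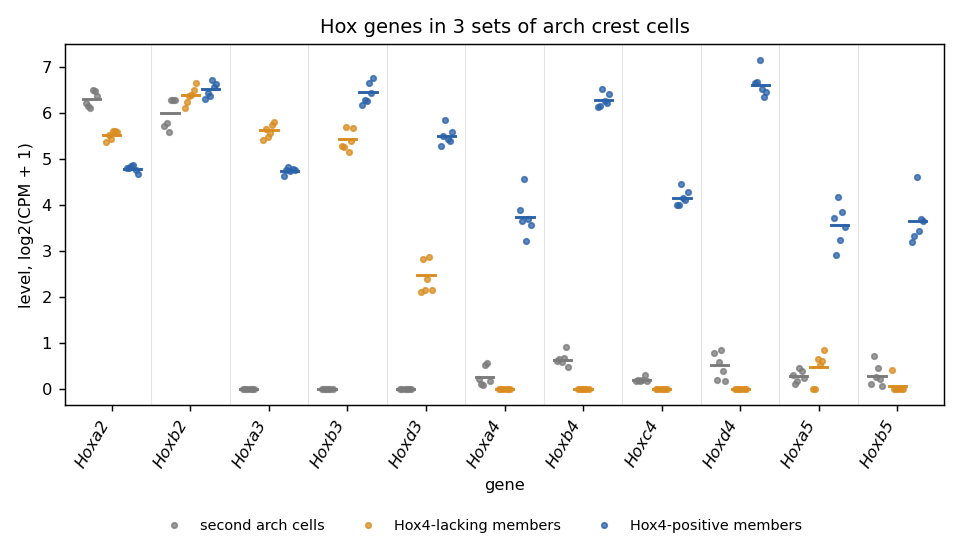
Level of 11 Hox genes (vertical axis, log2 of CPM + 1) in second arch cells (grey), Hox4-lacking (orange) and Hox4-positive (blue) Hox3-positive cells. Points are the 6 libraries and bars the pooled level; Hoxa3, Hoxb3 and Hoxd3 are at 0 in second arch cells, and the Hox4 genes at 0 in Hox4-lacking cells, because the rules that define the sets fix them there.

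Beyond the Hox genes, the leading higher genes included the transcription factors Tfap2b, Alx1 and Six2. Tfap2b, an AP-2 factor of neural crest, stood at 62.3, 86.7, 74.8, 122, 115 and 126 CPM in Hox3-positive cells of libraries 1 to 6 and at 2.91, 3.71, 0.876, 8.61, 6.05 and 6.74 CPM in Hox3-lacking cells. The ratio was 22.1-fold (20.2 to 24.1), and after thinning to 10000 UMIs 46.9% of Hox3-positive and 3.22% of Hox3-lacking cells held a UMI. Barcodes with migratory crest and glia markers held 22.0% of the Tfap2b UMIs of Hox3-positive cells. Without barcodes carrying markers of another cell type, Tfap2b was at 86.8 against 4.21 CPM and still called. Alx1, a homeobox factor of facial mesenchyme, was at 22.7 to 39.2 CPM against 0.925 to 4.11 CPM, a ratio of 16.4-fold (14.3 to 18.9). Six2, a homeobox factor that keeps mesenchymal progenitors undifferentiated, was at 16.8, 25.7, 25.3, 27.1, 23.8 and 28.5 CPM, against 1.30 to 2.61 CPM, 13.2-fold (11.5 to 15.2). The libraries of the sets did not overlap for these 3 genes, as for 6.81% of all genes tested on the higher side and 5.43% on the lower. Scube1, a secreted glycoprotein, was at 96.7 to 123 CPM against 17.7 to 28.3 CPM.

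Among the other leading genes, Slitrk6, Asic2 and Sgcz code for membrane proteins, a group for which no share over all genes was taken. Slitrk6, a synaptic adhesion protein, was higher by 12.8-fold (11.1 to 14.9), from 1.72 to 22.1 CPM, Asic2, an acid-sensing ion channel, by 7.12-fold (6.42 to 7.90), and Sgcz, a sarcoglycan, by 9.94-fold (8.69 to 11.4). Phactr3, a regulator of protein phosphatase 1 and actin, was at 62.4 against 4.78 CPM, and Samd5 and Tmem132d were at 23.2 against 2.19 and 34.8 against 4.83 CPM. Without the barcodes that carried markers of another cell type, these 6 genes were still called. Nefm, a neurofilament, was different: 89.8% of its UMIs came from 17 cells, and without marked barcodes it stood at 2.12 against 1.77 CPM and was not called.

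The leading lower genes were homeobox and POU factors, noncoding RNAs, a matrix protein and others. Pou3f3, a POU factor of dorsal arch mesenchyme, was at 2.03, 0.264, 0.395, 3.46, 3.83 and 4.81 CPM in Hox3-positive cells of libraries 1 to 6, and at 19.1, 8.20, 7.06, 49.6, 41.5 and 61.9 CPM in Hox3-lacking cells. The ratio was 12.3-fold (10.7 to 14.1), and in both sets libraries 4 to 6 were the highest. Pantr1 (chr1:42590782-42694842, minus strand), a long noncoding RNA that starts close to Pou3f3 and is read away from it (chr1:42695768-42703176, plus strand) in the gene models, was lower by 8.52-fold (7.52 to 9.69). Hmx1, a homeobox factor of the outer ear, was at 4.61 to 34.8 CPM against 30.8 to 157 CPM. The 2 ranges of Hmx1 touched, since library 3 held 34.8 CPM in Hox3-positive cells and library 6 held 30.8 CPM in Hox3-lacking ones, but within each library the Hox3-positive cells were the lower. Emx2, a homeobox factor of the shoulder and middle ear among other places, was at 1.28 to 5.22 CPM against 17.6 to 34.6 CPM.

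Gsc, a homeobox factor of the lower arch and outer ear, was at 2.81 against 23.1 CPM, lower by 8.25-fold (7.23 to 9.45), and Dlx3 at 5.58 against 29.8 CPM. Dlx4os, a transcript antisense to Dlx4, was at 2.41 against 21.5 CPM. How strand was used in counting is not given in the sources used here, and the separation of Dlx4os from Dlx4 was not checked. Smoc1, a secreted matrix protein that binds BMPs, was at 6.85 against 49.1 CPM, and Enpp2, which makes lysophosphatidic acid, at 7.06 against 23.0 CPM. Col9a1, a cartilage collagen, was at 29.4 against 114 CPM and Bnc2, a zinc finger factor of mesenchyme, at 34.5 against 127 CPM. Pcdh19, a protocadherin, and Adarb2, a relative of RNA-editing enzymes, were lower by 4.07-fold and 3.55-fold, and the noncoding RNAs 3110099E03Rik and Gm29260 by 8.44-fold and 6.77-fold. All 15 of the leading lower genes kept at least a 2-fold difference under each of 16 other settings.

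Cells on either side of the Hox3 threshold are given next, as a description. The genes shown were picked for their difference between Hox3-positive and Hox3-lacking cells, so a change along these steps is fixed in part. The 440 arch crest cells with 1 Hox3 UMI stood at 16.5 CPM for Tfap2b and 20.3 CPM for Pou3f3, and the 220 cells with 2 UMIs, just inside the rule, at 38.0 and 7.06 CPM. Cells with 6 or more Hox3 UMIs (906 cells) were at 123 CPM for Tfap2b and 1.04 CPM for Pou3f3. Hmx1 was at 92.8 CPM with no Hox3 UMI, 103 with 1, 51.1 with 2, 21.5 with 3 and 6.85 with 6 or more. Tfap2b climbed at each step, and Hmx1 with 1 UMI was still at the level of Hox3-lacking cells or above it. Pou3f3 stood at 6.39 CPM with 3 UMIs and 2.20 with 4 or 5. Its counting intervals were 18.4 to 22.3 with 1 UMI and 5.50 to 8.91 with 2 UMIs. Median depth was 41649.5 to 43818.5 UMIs in cells with up to 5 Hox3 UMIs and 51570.5 in those with 6 or more.

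**Figure D4:**
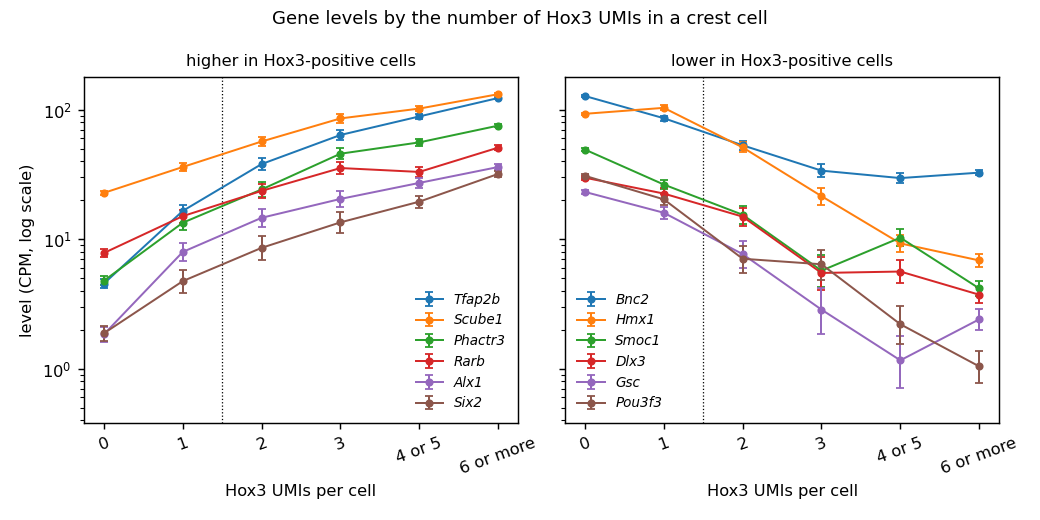
Level of 12 genes (vertical axis, CPM, log scale) in arch crest cells grouped by their number of Hoxa3, Hoxb3 and Hoxd3 UMIs (horizontal axis), with 95% exact Poisson bars and a dotted line at the threshold of the rule. Tfap2b climbs from 4.54 CPM with no Hox3 UMI to 123 CPM with 6 or more, and Pou3f3 goes from 30.8 to 1.04 CPM.

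Lists of patterning genes were split in both directions. The gene lists here and below were chosen with earlier results of these data known, so their counts are a description only. Of 16 tested genes of the ventral Dlx programme, 4 were higher (Msx2, Gata3, Ednrb and Foxf1) and 3 lower (Dlx3, Gsc and Barx1), with a median log2 ratio of 0.16, where 1.89% of all genes were higher and 0.819% lower. Msx2, a homeobox target of BMP signalling, was at 54.0 against 18.8 CPM, Foxf1 at 27.5 against 7.14, and Barx1, a factor of tooth and joint mesenchyme, at 136 against 307. Foxf1 is also a marker of heart field mesoderm and reached the minimum only in Hox3-positive cells. The part of heart field cells in its call was not tested. The core of the programme was not called: Dlx5 was at 91.1 against 100.2 CPM, Dlx6 at 42.6 against 48.7, and Hand2, a driver of ventral identity, at 71.5 against 53.8. The pooled Dlx5 values hide a difference between libraries. After thinning, 45.1, 46.7 and 50.3% of Hox3-positive cells of libraries 1 to 3 held Dlx5, against 61.5, 68.1 and 64.7% of Hox3-lacking cells. In libraries 4 to 6 the shares were 41.5, 41.6 and 39.1% against 37.5, 47.6 and 37.5%. Of 13 tested genes of the dorsal and maxillary list, 4 were higher (Six2, Shox2, Alx1 and Meox1) and 3 lower (Pou3f3, Nr2f1 and Emx2), with a median of 0.18, against the same shares of all genes. Meox1, a homeobox factor also used in somites, was at 44.7, 63.4, 48.7, 94.3, 72.7 and 88.4 CPM against 11.4, 5.70, 5.65, 37.3, 18.5 and 30.6. The 7 markers of paraxial mesoderm, Meox1 among them, summed to 98.9 CPM in Hox3-positive and 34.8 CPM in second arch cells, and only Meox1 reached 10 CPM; the part of such cells in the Meox1 value was not tested.

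Genes tied to the cardiac and arch artery crest were called in 1 direction. Of 21 tested, 8 were higher and none lower, with a median log2 ratio of 0.34, where 1.89% of all genes were higher, 0.819% lower and the median was -0.01. This list was chosen with earlier results of these data known, and Isl1 reached the minimum only in Hox3-positive cells. These counts are therefore a description only. Isl1 and Rgs5, among the 8, are also markers of heart field mesoderm and smooth muscle, and the heart field markers summed to 63.6 against 29.0 CPM and were the higher in every library. Their part in these calls was not tested. Tbx2, a T-box repressor of the outflow tract and pharyngeal mesenchyme, was at 103, 103, 117, 72.5, 72.3 and 79.4 CPM in libraries 1 to 6 against 16.0 to 22.3 CPM, a ratio of 4.90-fold (4.67 to 5.14). Tbx3, its close relative, was at 46.0 to 61.6 CPM against 6.99 to 17.5 CPM, and Mef2c, a MADS-box factor of muscle and crest, at a pooled 90.5 against 23.5 CPM. The sets did not overlap for these 3 genes (6.81% of all genes on the higher side). Rgs5, a pericyte gene, was at 53.6 and 51.4 CPM in libraries 1 and 2 and at 16.6 to 24.2 in the other 4, against 8.03 to 15.9 in Hox3-lacking cells. Isl1, a factor of the heart field, was at 13.1 against 6.37 CPM, with library 6 at 6.68 against 6.62, so its call rested on a thin margin there. Against second arch cells Isl1 was not called, with library 6 at 6.68 against 6.78 CPM, and Gata6 took its place among the 8.

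Receptors and ligands of guidance were also called in 1 direction. Of 19 tested genes, 6 were higher and none lower, with a median log2 ratio of 0.27, against 1.89% higher and 0.819% lower of all genes. Of these 6, 3 (Nrp1, Plxna2 and Plxna4) also stand in the cardiac list. Robo2, a receptor for Slit proteins, was at 142 to 187 CPM in the 6 libraries against 41.4 to 51.0 CPM, a ratio of 3.74-fold (3.63 to 3.86). Its ligand Slit3 was at 173 against 75.5 CPM. Nrp1, a co-receptor for semaphorins, was at 58.5 against 27.2 CPM, and its partners Plxna2 and Plxna4 at 55.3 against 22.6 and 26.2 against 12.2. Sema3d, a secreted semaphorin, was at 3.98 to 9.29 CPM in libraries 1 to 3 and at 14.1 to 19.8 CPM in libraries 4 to 6, against 1.15 to 3.11 CPM in Hox3-lacking cells. The higher libraries were also those with more migratory crest and glia markers, whose part in the Sema3d values was not tested.

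Genes of the thymus and parathyroid pathway (9 tested) were called in both directions. Kitl, the ligand of the KIT receptor, was at 72.1, 94.0, 73.9, 143, 115 and 114 CPM against 13.4 to 40.1 CPM, a ratio of 4.16-fold (3.99 to 4.33). Eya1, part of the network that forms pharyngeal organs, was lower by 2.08-fold (1.99 to 2.17). The chemokine Cxcl12 was not called, at 57.8 against 67.6 CPM.

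Each of the FGF, BMP, Wnt and Hedgehog lists held called genes, where 1.89% of all genes were higher and 0.819% lower. FGF feedback genes Spry1 and Spry2 were higher (2 of 10 tested), by 2.61-fold (2.43 to 2.80) and 2.17-fold (2.05 to 2.30). In the BMP and TGF-beta list, with 12 tested and a median log2 ratio of 0.75, the BMP modulators Bmper and Bambi were higher, at 12.1 against 3.71 and 103 against 48.0 CPM, and the receptor Bmpr1b was lower, at 129 against 279 CPM. The BMP target Id3 was at 783 against 409 CPM, 1.91-fold (1.89 to 1.94), just under the call, and against second arch cells Id1 and Id3 were called. In the Wnt list of 10 tested, the secreted antagonist Dkk1 was higher, at 37.5 to 64.3 CPM against 7.56 to 15.6, and the Wnt target Axin2 lower, at 9.22 against 25.7 CPM. In the Hedgehog list of 7 tested, only the co-receptor Gas1 was called, lower at 94.4 against 215 CPM. Of 16 matrix and cartilage genes, Col1a1 was higher at 18.1 against 6.82 CPM, and Col9a1 and Twist2 were lower.

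No call was made among 19 cell cycle genes or 14 genes of glucose uptake and use, and with 1.89% of all genes called higher and 0.819% lower these counts say nothing particular of either list. The proliferation marker Mki67 was at 158 against 156 CPM (ratio 1.01, 0.987 to 1.03), Top2a at 439.6 against 428 CPM, the glucose transporter Slc2a1 at 47.1 against 54.6 and the glycolytic enzyme Ldha at 1678 against 1436 CPM. The medians of the 2 lists were -0.02 and 0.13 on the log2 scale, against -0.01 for all genes tested.

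Retinoic acid signalling drives Hox genes of the posterior arches. Of 7 tested genes of its list, 2 were higher and none lower, where 1.89% of all genes were higher and 0.819% lower. Against second arch cells 8 genes were tested, 2 higher (Rarb and Crabp1) and 1 lower (Cyp26a1), where 1.96% of all genes were higher and 0.901% lower. Rarb, a retinoic acid receptor whose own gene responds to the ligand, was at 35.4, 37.8, 46.8, 44.6, 43.4 and 48.4 CPM in Hox3-positive cells of libraries 1 to 6 and at 9.03, 8.96, 10.4, 7.89, 7.17 and 3.74 CPM in Hox3-lacking ones. The ratio was 5.44-fold (5.06 to 5.85), with no overlap between the sets (6.81% of all genes on the higher side). Rarb is not particular to these cells: cardiomyocyte barcodes held 32.9 CPM, and the gene overlaps Top2b on the opposite strand. Crabp1, which binds retinoic acid in the cytoplasm, was at 886, 1049, 817, 2004, 1456 and 1674 CPM against 474, 497, 370.2, 786, 677 and 702 CPM, 2.35-fold (2.33 to 2.37), and libraries 4 to 6 were highest in both sets. Its relative Crabp2 was not called, at 231 against 287 CPM. Cyp26a1, which breaks retinoic acid down, was at 1.72 against 9.99 CPM, under the minimum, and at 10.6 CPM in second arch cells, and Aldh1a2, which makes it, was at 3.42 against 0.742 CPM.

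The promoters of 3 genes are shown because each bears on a pattern above: Rarb for retinoic acid, Six2 for the homeobox genes that were higher, and Hoxa2 for the Hox gene that was lower. Each is the 250 bases before the start given by RefSeq (GRCm38.p6), all on the minus strand, written 5′ to 3′: Rarb at chr14:16575477-16575726, Six2 at chr17:85688255-85688504 and Hoxa2 at chr6:52164832-52165081. Capitals mark a DR5 retinoic acid response element in Rarb, TGACAG (a site read by Meis factors) on either strand in Six2, and TGATNNAT (a site read by Pbx with Hox factors) and TGACAG in Hoxa2.
Rarb: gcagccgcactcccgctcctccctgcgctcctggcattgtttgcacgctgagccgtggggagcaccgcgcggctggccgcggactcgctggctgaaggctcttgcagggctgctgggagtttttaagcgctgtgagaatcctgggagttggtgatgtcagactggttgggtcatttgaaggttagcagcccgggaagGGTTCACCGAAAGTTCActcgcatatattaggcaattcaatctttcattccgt
Six2: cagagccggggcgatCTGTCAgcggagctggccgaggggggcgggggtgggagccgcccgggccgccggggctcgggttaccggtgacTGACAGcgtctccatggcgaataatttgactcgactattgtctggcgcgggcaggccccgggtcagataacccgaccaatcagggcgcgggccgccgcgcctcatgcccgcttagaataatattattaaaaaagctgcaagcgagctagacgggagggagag
Hoxa2: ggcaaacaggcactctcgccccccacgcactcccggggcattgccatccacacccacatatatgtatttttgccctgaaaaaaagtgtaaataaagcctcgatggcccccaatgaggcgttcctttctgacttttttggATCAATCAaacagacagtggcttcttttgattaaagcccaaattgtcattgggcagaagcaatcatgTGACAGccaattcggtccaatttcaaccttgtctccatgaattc
The element in Rarb lies 53 to 37 bases before the start, and the DR5 element was found in 29 of 32851 promoters of the same length (0.0883%). TGATNNAT was in 7.68% and TGACAG in 15.9% of them, on either strand. Of the 15 leading higher genes 9 had a promoter in the table: 1 held the DR5 element (Rarb), none TGATNNAT, and 2 TGACAG (Six2 and Scube1). Of the 15 leading lower genes 11 had one, with no DR5 element, no TGATNNAT and TGACAG in 1, 3110099E03Rik. A match describes the letters of a window and no more.

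The Hox3-positive cells were not uniform: they differed in their Hox4 genes. At least 2 UMIs of Hoxa4, Hoxb4, Hoxc4 and Hoxd4 together were found in 1140 cells (67.6%), none in 427 (25.3%) and 1 in 119 (7.06%). The Hox4-positive share ran from 61.1% in library 3 to 75.1% in library 4. Both sets had similar depth, with medians of 47648 and 47743 UMIs. Of 8427 genes tested, 92 (1.09%) were higher and 60 (0.712%) lower in Hox4-positive than in Hox4-lacking cells. The direction was required in 5 libraries, because library 4 had only 47 Hox4-lacking cells.

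The Hox3 genes themselves differed across this split, given here as a description. Hoxd3 was at 38.0, 44.6, 56.2, 41.9, 40.9 and 47.3 CPM in Hox4-positive cells and at 3.30, 6.09, 3.44, 4.21, 6.30 and 3.41 CPM in Hox4-lacking cells. Hoxb3 was at 87.0 against 42.3 CPM, while Hoxa3 went the other way, at 25.8 against 48.5 CPM. Hoxa2 was at 26.7 CPM in Hox4-positive, 45.2 in Hox4-lacking and 78.2 in second arch cells, which were chosen on Hoxa2 and Hoxb2. Hoxb3os, annotated antisense to Hoxb3 and Hoxb2, was lower in Hox4-positive cells, at 18.9 against 58.1 CPM. The separation of Hoxb3os from these genes by strand was likewise not checked. Hoxa5 and Hoxb5 were higher, at 10.8 against 0.379 and 11.6 against 0.0473 CPM, the latter from 1 UMI in Hox4-lacking cells.

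Six2, Alx1 and Rarb were higher in Hox4-positive than in Hox4-lacking cells. Their second arch levels are given beside these, with no call, since Hox4-positive and second arch cells were not compared directly. Six2 was at 25.7, 36.6, 40.2, 34.9, 31.7 and 39.7 CPM in Hox4-positive cells of libraries 1 to 6 and at 0.661, 3.04, 1.72, 2.10, 3.67 and 2.36 CPM in Hox4-lacking cells, 14.7-fold (11.1 to 19.9) and with no overlap, as for 3.38% of all genes on the higher side. Second arch cells held 1.93 CPM of Six2. Rarb was at 56.6 against 9.94 CPM, with 6.93 in second arch cells, and Alx1 at 40.6 against 6.01 CPM, with 1.78. Tmem132d, Sgcz and Asic2, all leading genes of the first comparison, were also higher here, by 17.9-fold, 12.7-fold and 11.5-fold.

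Other genes were on in both Hox3-positive sets or graded between them. Tbx2 was at 80.8 CPM in Hox4-positive, 113 in Hox4-lacking and 18.5 in second arch cells. Tbx3 was at 63.3, 30.4 and 11.1 CPM in the same order, Tfap2b at 128, 41.6 and 4.88, and Kitl at 128, 52.5 and 26.3. For Tfap2b the 3 sets kept this order within every library, library 4 with its 47 Hox4-lacking cells included. Hox4-lacking cells were at 16.5 to 55.9 CPM. Barcodes with migratory crest and glia markers made up 10.1% of Hox4-positive, 1.41% of Hox4-lacking and 0.719% of second arch cells. Their part in this order was not tested. Among the genes lower in Hox3-positive cells, Pou3f3 was at 1.68 CPM in Hox4-positive and 3.79 in Hox4-lacking cells against 33.8 in second arch cells, and Gsc at 2.28 and 3.22 CPM against 18.5. Hmx1 stood between, at 7.41, 30.8 and 98.7 CPM, and its Hox4-lacking value ranged from 9.95 CPM in library 6 to 87.8 in library 3.

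**Figure D5:**
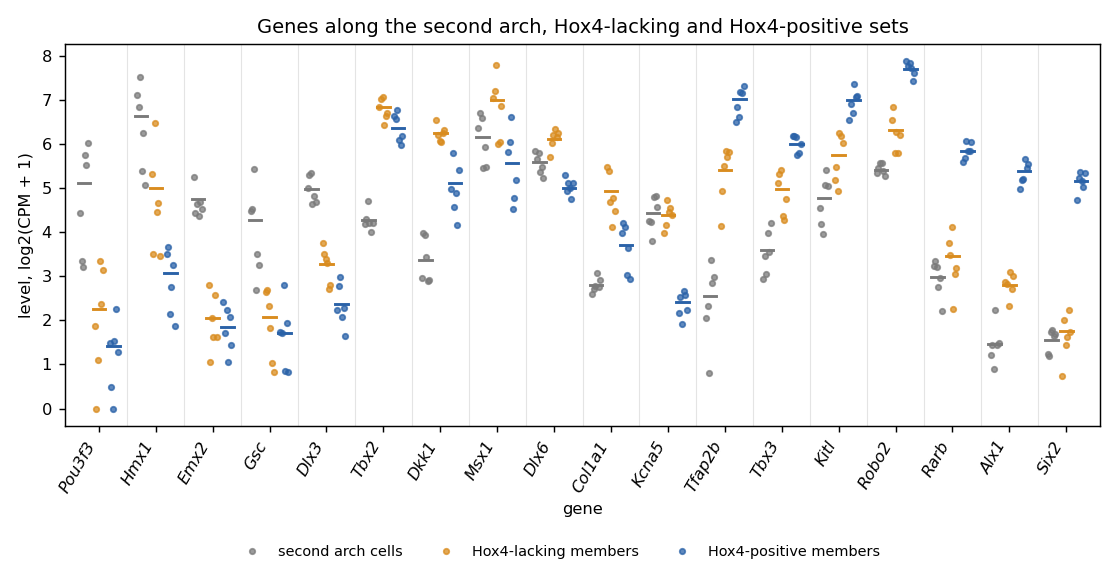
Level of 18 genes (vertical axis, log2 of CPM + 1) in second arch cells (grey), Hox4-lacking (orange) and Hox4-positive (blue) Hox3-positive cells. Points are the 6 libraries and bars the pooled level; Six2 is low in second arch and Hox4-lacking cells (1.93 and 2.37 CPM) and at 34.9 CPM in Hox4-positive cells, while Tbx2 is at 80.8 and 113 CPM in the Hox4-positive and Hox4-lacking sets and at 18.5 CPM in second arch cells.

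Some ventral and matrix genes were lower in the Hox4-positive cells. Of 14 tested genes of the ventral Dlx list, 4 were lower (Dlx6, Hand1, Hand2 and Msx1) and none higher, with a median log2 ratio of -0.63 against -0.01 for all genes tested, of which 0.712% were lower. Dlx6 was at 25.8 to 38.3 CPM in Hox4-positive cells against 51.2 to 80.3 in Hox4-lacking cells, and Hand2 at 53.9 against 110.2. Msx1, a homeobox target of BMP signalling, was at 55.3, 64.6, 97.1, 22.1, 26.5 and 35.6 CPM against 131, 145, 221, 63.5, 65.1 and 116, and was low in libraries 4 and 5 in both sets. Hand1 was at 10.6 against 31.0 CPM, with library 2 at 27.7 and library 3 at 0.972 CPM among Hox4-positive cells. Its log2 ratio of -1.55 was -2.27 without library 2 and -0.29 when 5 UMIs of Dlx1 and Dlx2 were required. Of 16 matrix genes the collagens Col1a1, Col1a2 and Col3a1 were lower, by 2.46-fold (2.21 to 2.75), 2.66-fold (2.48 to 2.85) and 2.11-fold (2.01 to 2.21). Dkk1, Dkk2 and Tcf7 of the Wnt list (10 tested) were also lower. Kcna5, a voltage-gated potassium channel, was at 2.76 to 5.38 CPM against 14.9 to 25.5 CPM with no overlap (2.97% of all genes on the lower side), and Bcl11b, a zinc finger factor, at 15.9 against 44.9 CPM.

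Of 13 dorsal and maxillary genes, 5 were higher in Hox4-positive cells (Six2, Shox2, Alx1, Pax3 and Meox1) and 2 lower (Jag1 and Hey1, a Notch ligand and a Notch target), where 1.09% of all genes were higher and 0.712% lower. Meox1 was at 86.5 against 36.5 CPM and Shox2 at 16.4 against 6.30 CPM. Pax3, a factor of premigratory crest and somites, was at 1.39, 8.80, 9.89, 23.7, 19.3 and 7.96 CPM against 0 to 5.47 CPM, and its levels in library 1 nearly met. Crabp1, Rarb, Kitl, Tbx3, Plxna2, Robo2, Slit2 and the Hox cofactor Meis3 were higher as well, Robo2 at 206 against 78.6 CPM and Slit2 at 161 against 71.1. Rgs5 was lower, at 22.1 against 49.2 CPM. No cell cycle, glucose, FGF, BMP or Hedgehog list gene was called in this comparison, which with these shares of all genes says nothing particular of those lists. The median log2 ratio of the 14 glucose genes was 0.46, with Ldha at 1848 against 1265 CPM and Pgk1 at 760.1 against 465.

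Barcodes with markers of other cells moved with the Hox4 split. Neuron markers were found in 64 Hox4-positive cells (5.61%) and 3 Hox4-lacking cells (0.703%), migratory crest and glia markers in 115 (10.1%) and 6 (1.41%), and cardiomyocyte markers in 15 (1.32%) and 10 (2.34%). Without such barcodes the counts went from 92 to 68 higher and from 60 to 50 lower, of which 61 and 41 were shared with the counts given first. Nefm, Nefl and Sntb1, higher in Hox4-positive cells, and the sarcomere genes Ttn, Tnnc1 and Myl7, lower in them, lost their 2-fold difference without these barcodes. Ttn then stood at 2.37 against 2.12 CPM and Myl7 at 7.14 against 5.66 CPM, so both changed direction. In library 4, which was outside the call, both already ran the other way, with Ttn at 2.19 against 0.841 CPM and Myl7 at 10.4 against 2.94 CPM. Ttn, Tnnc1 and Myl7 each fell below 2-fold under 2 of 16 settings, the one without marked barcodes among them. Hspb1, a small heat shock protein, was lower by 3.98-fold, with 38.7% of its UMIs in Hox4-lacking cells in cardiomyocyte-marked barcodes and 40.2% in 5 cells, and was lower by 2.60-fold without marked barcodes. Six2, Tmem132d, Sgcz, Asic2, Kcna5, Hoxb3os and Bcl11b kept at least a 2-fold difference under each of 16 settings.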

How the data were processed

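Single-cell RNA was measured with the 10x Chromium 3′ v3 kit. The deposited matrix holds UMI counts of 32285 genes in 53362 barcodes as the authors made it, with CASAVA 1.8, Cell Ranger 5.0.0, Seurat 4 and the mm10 build named, without their roles, per the submitters' processing notes. The labels' descriptions name a chromatin accessibility assay, while titles, library source and kit name RNA, and the matrix holds gene counts. No file used here pairs barcode suffixes with samples, so no group was compared.

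Cells were chosen by counts alone, with no clustering and no doublet removal. Counts were summed per set and library in Python 3.11.15 (numpy 2.4.6, scipy 1.17.1, pandas 2.3.3). Intervals are exact Poisson for CPM, exact binomial for shares, and derived from the binomial for ratios. A 2-fold difference was looked for among genes with 10 CPM, leaving out rule genes, Xist, Tsix and Y-linked genes (and Hox4 genes in the Hox4 split). Hoxa2 and Hoxb2 were not left out of the second arch comparison. Shares of cells after thinning come from 10000 UMIs drawn per cell, and the calling step was checked on simulated counts. Scrublet scores came from scanpy 1.11.5, taking 0.8% of barcodes per 1000 barcodes of a library.

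Second arch cells had no Hox3 UMI and at least 2 UMIs of Hoxa2 and Hoxb2. Cardiomyocyte barcodes held at least 10 UMIs each of Tnnt2 and Myl7 and none of Dlx1, Dlx2 or Twist1. Genes were named by a rule: the 15 largest and 15 smallest ratios among called genes with 20 CPM in the higher set, 8 and 8 in the other comparisons, the 8 with 50 CPM in some library that varied most between libraries, called and abundant genes of each list, and all Hox genes. Hist1h1b, Sox10 and genes named under the limit of 10 CPM were added after their values were seen. Some genes that the rule names are not reported here. The members and lists were chosen with earlier results of these data known. Promoters were read from RefSeq (GRCm38.p6), and 32158 gene IDs were found in GENCODE M21.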

Additional observations from a re-analysis of the deposited data

How the results depend on the processing

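The Hox3-positive share of the arch crest, 34.1%, was 29.7% with 3 Hox3 UMIs required and 36.5% with 5 Dlx UMIs. It was 32.6% without the highest Scrublet scores, 32.5% without shared barcodes, 32.7% without barcodes carrying markers of another cell type and 13.6% after thinning to 10000 UMIs. Leaving out each library in turn gave 31.8% (without library 2) to 37.1% (without library 1). With no minimum CPM the counts of called genes grew, to 609 higher and 304 lower against Hox3-lacking cells, 653 and 306 against second arch cells, and 508 and 160 in the Hox4 split. Under every other setting run, all 6 counts stayed within 1.5 times their values. The log2 ratios of Ttn and Myl7 in the Hox4 split reversed to 0.16 and 0.33 without barcodes carrying markers of another cell type, a setting chosen after the data were seen. Leaving out 1 library moved 4 ratios of the Hox4 split by over 1.5 times: Hand1 without library 2 (log2 ratio -2.27), Nefm without library 4 (4.86), Nefl without library 5 (3.26) and Myl7 without library 6 (-1.43).

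No paired analysis was possible because no file used here ties the 6 barcode suffixes to samples, and so the comparison of STZ with vehicle, with edgeR or DESeq2, was not run. The table counts as 1 sample, so intervals cover counting error only, and depth limits which cells are found: 136 cells met the rule at 10000 UMIs per cell, against 1686 at full depth.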
